A study of Homo sapiens with 10 samples.

Results

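Glycolysis breaks glucose down to pyruvate and, through lactate dehydrogenase, to lactate. The 10 genes described here code for enzymes at its start (HK1, HK2), at its main control point (PFKP, PFKL and the regulators PFKFB3 and PFKFB4) and at its later steps (ALDOA, ENO1, PKM and LDHA). The measured quantity was H3K27ac, an acetylation of histone H3 that marks active promoters and enhancers, by chromatin immunoprecipitation and sequencing. All annotated regions whose gene symbol was 1 of these 10 were taken, which gave 96 of the 67387 annotated regions of the series. HK1 had 10 regions, HK2 14, PFKP 21, PFKL 4, PFKFB3 11, PFKFB4 5, ALDOA 2, ENO1 17, PKM 9 and LDHA 3. Of the 96 regions, 34 lay within 1 kb of a transcription start site (TSS) and are called promoter regions, 15 lay between 1 and 3 kb from one, and 47 lay elsewhere and are called distal. PFKFB4, ALDOA and LDHA had no distal region. A region carries the symbol of the gene with the nearest TSS, which does not show that it acts on that gene. All 96 regions passed the filter on low counts.

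The cells were H1975, an established human lung adenocarcinoma line with mutant EGFR, and every group was made from it. DMSO cells were kept drug-free over 21 days and were then given DMSO, the solvent, over 3 days. The osi_DTP cells, the drug-tolerant persisters, received 500 nM osimertinib, an inhibitor of EGFR, for 24 days. The osi_DTP_AZD5153_combo cells, called combo here, received 500 nM osimertinib for 21 days and then 150 nM AZD5153 for 3 days, and the labels do not say whether osimertinib stayed in the medium during those days. Each group had 3 libraries from biological triplicates, and 1 input library was pooled. The comparisons ask how H3K27ac at these genes differs in persister cells from DMSO cells, and in persister cells given AZD5153 from both.

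As background, hexokinase traps glucose in the cell as a phosphate, phosphofructokinase makes the first step that commits the sugar to glycolysis, and PFKFB enzymes set the level of the sugar phosphate that activates phosphofructokinase. Aldolase splits the sugar, enolase and pyruvate kinase act at the end of the pathway, and lactate dehydrogenase regenerates the oxidised cofactor that glycolysis consumes. Tumour cells often run this pathway at a high rate also in the presence of oxygen, and signalling from EGFR, MYC and the hypoxia-inducible factors is known to act on several of these genes.

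Some libraries stood apart, and this touched the results at promoters. Total counts ran from 6263443 to 10463351 per H3K27ac library. Promoter regions took between 29.3% and 34.8% of all counts in 7 libraries, but 50.8% in osi_DTP replicate 2 and 52.9% in combo replicate 3. Combo replicate 3 also correlated less with the other combo libraries (Spearman 0.430 and 0.354 across regions) than any other pair of the same group did (0.818 or more). The fits were therefore also run without both of them, which was added after the data were seen. All 5 regions called in osi_DTP against DMSO and all 15 in combo against DMSO with all libraries were also called without both. The defining epithelial markers had promoter regions for 6 of 6 genes, with summed promoter levels of 433 to 600.1, 443 to 954 and 441 to 942 CPM (counts scaled to the size of each library) in DMSO, osi_DTP and combo. The lung adenocarcinoma markers had them for 4 of 4 genes, at 101 to 196, 118 to 179.8 and 112 to 208. Of the leukocyte markers PTPRC and CD3E had no promoter region, and CD14 summed to 3.24 to 4.3, 2.8 to 3.86 and 6.34 to 9.97. Of the endothelial markers PECAM1 and VWF had none, and CDH5 summed to 10.5 to 31, 22.3 to 35.3 and 22.5 to 49. Of the fibroblast markers COL3A1 and LUM had none, and the other 3 of 5 summed to 14.5 to 31, 50.6 to 122 and 55.4 to 198, so that all treated libraries were above all DMSO libraries. Of the marker lists named, distal sums of EPCAM and CDH1 were lower, and that of PDGFRB higher, in both treated groups (edgeR). In combo the distal sums of KRT18, an epithelial marker, and LUM also passed as higher and that of PECAM1 as lower. The part of these marker genes in the results below was not tested.

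RefSeq promoters (250 bases before to 50 after a start, assembly GRCh38.p14) were found for all 10 genes, 24 in all. They were searched on both strands for ACGTG, the core of the site of hypoxia-inducible factors. They were also searched for the E-box of MYC and MAX, CACGTG, which reads alike on both strands and counts as 2 matches of the shorter motif. The shorter motif was found in 8 of the 24 promoters, from 5 of the 10 genes, against 21.4% of all 35114 promoters. The E-box was found in 4 of them, from 4 genes, against 7.26% of all. A match is a description of these letters only. The promoters below belong to the genes whose promoter sums were farthest from DMSO, PFKFB4 and PFKL, to HK2, where 1 of 3 promoter regions passed the test, and to LDHA, which had the single promoter with the most matches. They are written 5′ to 3′ in lower case, with matches on either strand in capitals.
HK2, chr2:74833877-74834176, plus strand: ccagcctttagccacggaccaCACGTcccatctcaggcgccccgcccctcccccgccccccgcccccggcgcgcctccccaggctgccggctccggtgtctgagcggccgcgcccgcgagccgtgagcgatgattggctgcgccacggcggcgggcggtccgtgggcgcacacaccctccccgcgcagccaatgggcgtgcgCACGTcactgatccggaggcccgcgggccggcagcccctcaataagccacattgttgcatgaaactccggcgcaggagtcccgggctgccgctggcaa
HK2, chr2:74834920-74835219, plus strand: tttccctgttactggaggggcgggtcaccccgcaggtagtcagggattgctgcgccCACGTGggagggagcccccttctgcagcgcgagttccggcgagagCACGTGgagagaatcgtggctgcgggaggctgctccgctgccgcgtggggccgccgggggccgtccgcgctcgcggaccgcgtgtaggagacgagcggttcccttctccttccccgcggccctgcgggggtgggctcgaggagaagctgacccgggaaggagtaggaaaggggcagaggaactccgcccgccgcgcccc
PFKL, chr21:44299803-44300102, plus strand: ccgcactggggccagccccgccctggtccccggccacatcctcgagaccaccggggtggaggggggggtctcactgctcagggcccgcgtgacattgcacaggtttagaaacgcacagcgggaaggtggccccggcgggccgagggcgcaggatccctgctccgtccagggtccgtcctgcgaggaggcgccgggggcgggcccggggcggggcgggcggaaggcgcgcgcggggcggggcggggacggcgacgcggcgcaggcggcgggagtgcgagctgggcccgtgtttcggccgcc
PFKFB4, chr3:48556754-48557053, minus strand: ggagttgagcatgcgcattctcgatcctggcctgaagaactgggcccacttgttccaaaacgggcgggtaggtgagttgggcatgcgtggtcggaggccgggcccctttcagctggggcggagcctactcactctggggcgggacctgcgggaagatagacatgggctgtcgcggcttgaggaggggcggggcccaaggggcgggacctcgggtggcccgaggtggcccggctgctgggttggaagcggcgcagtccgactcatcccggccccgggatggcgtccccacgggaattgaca
LDHA, chr11:18394313-18394612, plus strand: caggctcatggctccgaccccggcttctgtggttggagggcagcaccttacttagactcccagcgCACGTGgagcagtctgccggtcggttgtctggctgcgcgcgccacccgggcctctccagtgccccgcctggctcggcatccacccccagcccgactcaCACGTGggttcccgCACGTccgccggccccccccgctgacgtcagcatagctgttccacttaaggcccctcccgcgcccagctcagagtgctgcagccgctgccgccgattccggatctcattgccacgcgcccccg

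The first HK2 promoter shares 107 bases with the HK2 promoter region that was lower in osi_DTP, and the second shares 262 bases with the highest HK2 promoter region. The PFKL promoter shares 222 bases, the PFKFB4 promoter 104 and the LDHA promoter 116 bases with a promoter region of its gene. The PFKL and PFKFB4 promoters held no match, the HK2 promoters held 2 and 4, and the LDHA promoter held 5, from 2 E-boxes and 1 further site.

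The promoters of all 10 genes carried H3K27ac in all groups. Over the promoter region of highest mean count of each gene, all 9 libraries had a peak for 10 of 10 genes, and 55 of the 96 regions had a peak in all 9 libraries while none was without a peak. Levels are given as CPM, counts scaled to a common library size with the trimmed mean of M-values (TMM), for replicates 1, 2 and 3 in this order. They are relative to the other regions of a library, so a change of all regions together cannot be seen, and fewer cells that carry the mark cannot be told apart from less mark per cell. Because all regions are 502 bp wide, levels of single regions can be compared between genes. The highest promoter region of ALDOA had the highest level, with a mean of 69.8 CPM over the 9 libraries, followed by ENO1 with 53.7, LDHA with 39.0, PKM with 37.3, HK2 with 25.8, PFKL with 25.6, PFKP with 23.9, HK1 with 22.7, PFKFB3 with 21.4 and PFKFB4 with 16.1. The enzymes from aldolase to lactate dehydrogenase thus had the 4 highest levels. The ranges over the 9 libraries overlapped for all neighbours in this order. The pooled input held 2 to 26 counts in each of the 96 regions.

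Summed over its promoter regions, no gene of the 10 passed the test in any comparison. Among all genes tested, 1.07% passed as higher and 0.634% as lower in osi_DTP against DMSO (0% in either direction with the replicate number as a block), 2.37% and 1.1% in combo against DMSO, and 0% in either direction in combo against osi_DTP. The median log2 fold change of the 10 promoter sums was 0.24 in osi_DTP against DMSO, 0.20 in combo against DMSO and 0.15 in combo against osi_DTP, beside 0.37, 0.45 and 0.09 over all genes, and with TMM factors from promoter regions only the first 2 turned to -0.10 and -0.25, beside 0.02 and 0.06. Osi_DTP replicate 2 or combo replicate 3 was the highest of the 9 libraries for 9 of the 10 genes. Taken as a share of all promoter counts of a library, which does not depend on how many counts lie at promoters, the 34 promoter regions held 0.176%, 0.153% and 0.172% in DMSO, 0.141%, 0.147% and 0.121% in osi_DTP and 0.12%, 0.106% and 0.167% in combo. Every osi_DTP library was thus below every DMSO library on this scale, while combo replicate 3 lay among the DMSO libraries. Without osi_DTP replicate 2 and combo replicate 3, 4 of the 10 promoter sums were lower in osi_DTP than in DMSO (HK1, HK2, PFKP and PFKFB4), beside 11.7% of all genes. In that fit 3 were lower in combo than in DMSO (HK1, PFKP and PFKFB4), beside 12.4% of all genes. None of the 10 was higher in either comparison, and the share of all genes that was higher in that fit is not given here.

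**Figure D1:**
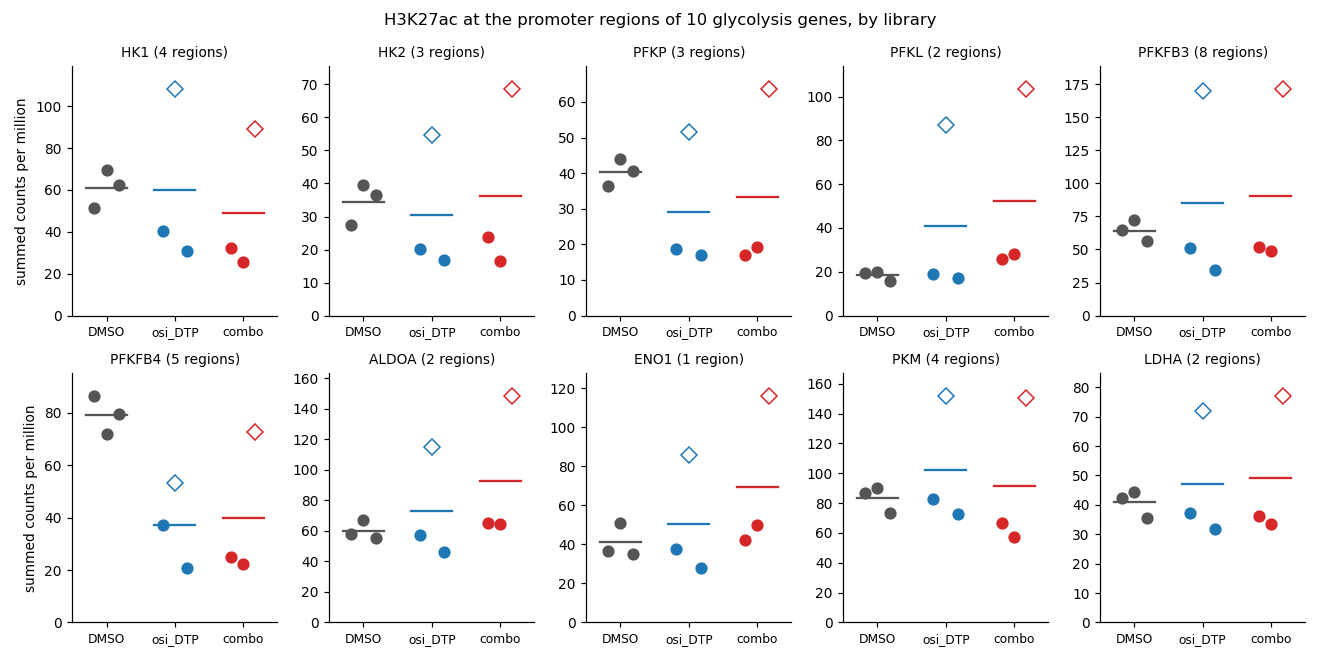
H3K27ac summed over the promoter regions of each gene, in TMM-scaled CPM (y axis), for the 3 libraries of each group (points) with the group mean (line). Open diamonds are osi_DTP replicate 2 and combo replicate 3, which had 50.8% and 52.9% of their counts at promoters. The other treated libraries of HK1, HK2, PFKP, PFKFB3 and PFKFB4 lie below all DMSO libraries.

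Single regions differed more than promoter sums did. In osi_DTP against DMSO, 2 of the 96 regions were higher and 3 lower by edgeR's quasi-likelihood test with Benjamini-Hochberg adjustment over all 157919 tested regions, of which 5.58% were higher and 5.13% lower. In combo against DMSO 8 were higher and 7 lower, where 9.05% and 9.01% of all regions were. Of the 67387 annotated regions, from which the 96 were taken, 6.98% were higher and 7.22% lower in osi_DTP against DMSO. In combo against DMSO 10.7% and 11.1% of them were. For the 96 regions together, the counts called were no higher than either set of shares would give. Of the 34 promoter regions 2 (5.88%) were lower in each comparison with DMSO, beside 1.85% and 3.18% of all promoter regions. None was higher, beside 2.78% and 5.33%. Of the 47 distal regions 2.13% were higher and 2.13% lower in osi_DTP, beside 9.79% and 10.8% of all distal regions. In combo 10.6% were higher and 8.51% lower, beside 14.3% and 16.1%. In combo against osi_DTP 0% of all regions were called in either direction, so no region of these genes was, 3 were higher and none lower at an unadjusted p under 0.05, and DESeq2 called none of the 96. The median log2 fold change of the 96 regions was -0.12 in osi_DTP against DMSO and -0.04 in combo against DMSO, against 0.15 and 0.23 over all regions. Both comparisons share the DMSO libraries.

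**Figure D2:**
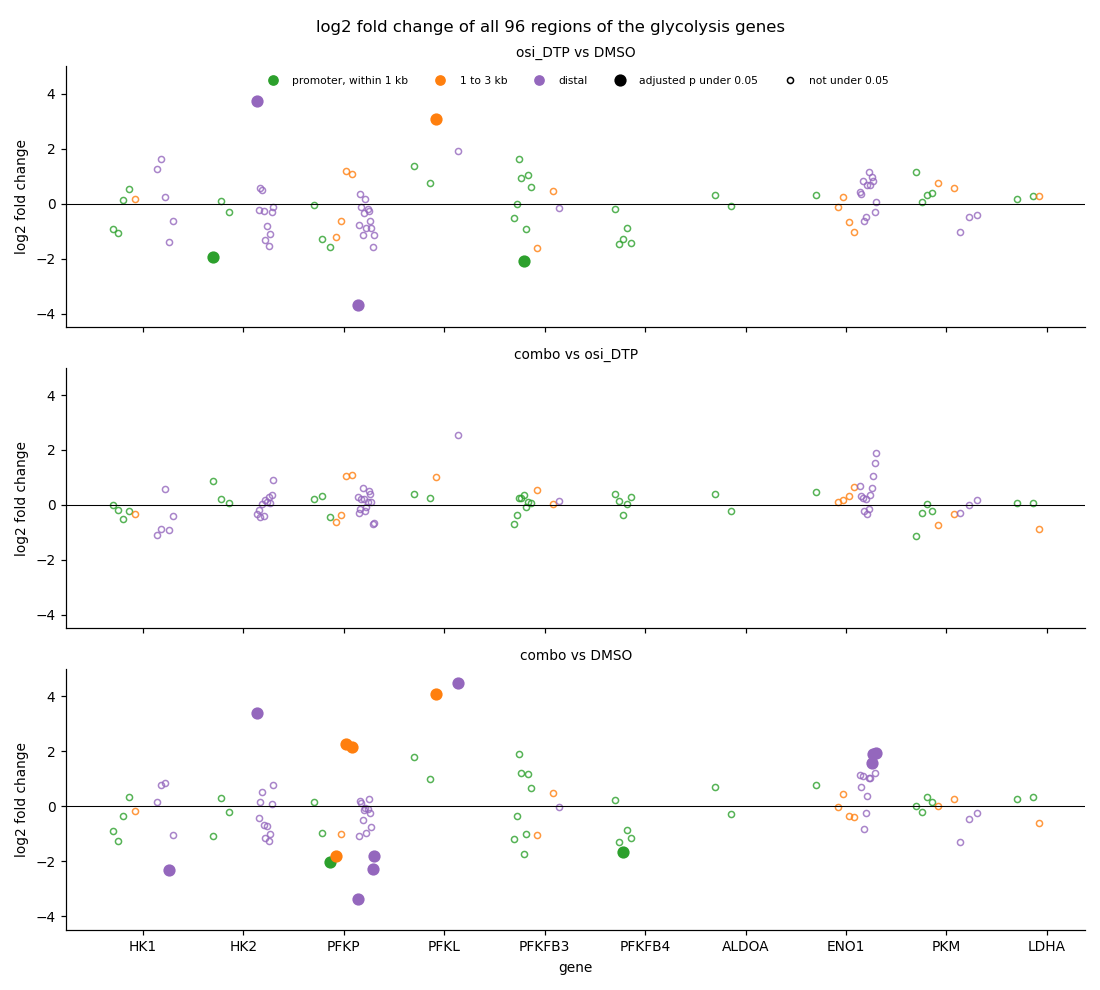
log2 fold change (y axis) of each of the 96 regions by gene (x axis) in the 3 comparisons, with promoter regions in green, regions at 1 to 3 kb in orange and distal regions in purple. Large filled points passed adjusted p under 0.05, which 5 regions did in osi_DTP against DMSO, 0 in combo against osi_DTP and 15 in combo against DMSO.

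HK2, the hexokinase that many tumours raise, had a distal region at chr2:74768551-74769052, -64929 bp from its TSS in an intron of another transcript, that was near the floor in DMSO. It had 0.719, 0.102 and 0.398 CPM in the DMSO libraries, 3.51, 8.95 and 4.49 in osi_DTP and 4.17, 5.31 and 4.02 in combo. All 6 treated libraries were above all DMSO libraries. The DMSO libraries together held 13 counts. The log2 fold change was 3.72 (SE 0.70, n = 3 per group, edgeR adjusted p = 0.00539) in osi_DTP and 3.41 (SE 0.70, n = 3 per group, edgeR adjusted p = 0.00442) in combo. The call in osi_DTP was lost in 1 of 9 fits without 1 library (highest adjusted p = 0.0567, without DMSO replicate 2). The call in combo was lost in 0 of 9. The nearest other protein-coding gene body, SEMA4F, lies 59140 bp away. That of HK2 lies 65075 bp away, so the assignment to HK2 is by TSS only.

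At the start of HK2 itself, the promoter region chr2:74833482-74833983 was lower in osi_DTP. It had 4.32, 7.58 and 5.77 CPM in the DMSO libraries, 1.52, 1.79 and 1.3 in osi_DTP and 3.58, 1.38 and 3.45 in combo. The osi_DTP libraries did not overlap with DMSO and their log2 fold change was -1.93 (SE 0.58, n = 3 per group, edgeR adjusted p = 0.041), while in combo it was -1.07 (SE 0.57, n = 3 per group, edgeR adjusted p = 0.203). This call was lost in 7 of 9 fits without 1 library (highest adjusted p = 0.202, without DMSO replicate 2). The neighbouring promoter region with the highest level, chr2:74834680-74835181, had 18.4, 26.6 and 25.1 CPM in the DMSO libraries, 14.3, 49.7 and 10.6 in osi_DTP and 15.7, 11.3 and 60.2 in combo and did not pass, with the highest values in the libraries rich in promoter counts. Inside the gene, the intron region of highest DMSO level, chr2:74865659-74866160 in intron 2 of 17, had 23.5, 51.2 and 39.6 CPM in the DMSO libraries, 11.8, 14.7 and 12.4 in osi_DTP and 14.1, 19.7 and 13.2 in combo. All treated libraries were below DMSO. Its log2 fold change was -1.55 (SE 0.51, n = 3 per group, edgeR adjusted p = 0.059) in osi_DTP. It missed the threshold with all libraries and passed without the libraries rich in promoter counts, at -1.63 (SE 0.35, edgeR adjusted p = 8.61e-04), and at -1.09 (SE 0.35, edgeR adjusted p = 0.0115) in combo. In that fit the HK2 distal region chr2:74868250-74868751 was higher in combo, at 1.32 (SE 0.41, edgeR adjusted p = 0.0116). The distal region chr2:74865077-74865578 was lower in osi_DTP, at -0.96 (SE 0.37, edgeR adjusted p = 0.048). The 11 distal regions of HK2 summed to 117, 195 and 174 CPM in the DMSO libraries, 94.6, 135 and 145 in osi_DTP and 107, 181 and 96.4 in combo, and this sum passed in no comparison.

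HK1, the hexokinase found in most tissues, changed in 1 intronic region. That region, chr10:69362467-69362968 in intron 6 of 20, had 5.58, 11.4 and 9.06 CPM in the DMSO libraries, 2.75, 4.41 and 2.7 in osi_DTP and 1.59, 1.85 and 1.72 in combo. The groups were apart in steps from DMSO down to combo. In combo against DMSO it fell by 2.32 on the log2 scale (SE 0.57, n = 3 per group, edgeR adjusted p = 0.0101), and in osi_DTP the log2 fold change was -1.40 (SE 0.54, n = 3 per group, edgeR adjusted p = 0.101), which passed without both libraries rich in promoter counts, at -1.64 (SE 0.47, edgeR adjusted p = 0.00933). The call was lost in 1 of 9 fits without 1 library (highest adjusted p = 0.0659, without DMSO replicate 2). The 4 promoter regions of HK1 summed to 51.3, 69.3 and 62.5 CPM in the DMSO libraries, 40.5, 108 and 30.9 in osi_DTP and 32.4, 25.5 and 89.3 in combo. Of these the region chr10:69316473-69316974, 688 bp inside its TSS, had 11.6, 18.3 and 16.3 CPM in the DMSO libraries, 7.68, 6.89 and 7.19 in osi_DTP and 8.15, 5.42 and 5.56 in combo. It was below DMSO in all treated libraries, with adjusted p = 0.186 and 0.0952 (edgeR), and passed in combo without both libraries, at -1.11 (SE 0.40, edgeR adjusted p = 0.0247). The highest HK1 distal region by mean, chr10:69360462-69360963 in the same intron as the region that fell, had 3.78, 6.66 and 4.98 CPM in the DMSO libraries, 2.75, 11.7 and 3.99 in osi_DTP and 5.66, 7.84 and 14.2 in combo and did not pass. The region chr10:69333367-69333868 in intron 4 of 20 had 1.71, 2.56 and 3.09 CPM in the DMSO libraries, 4.17, 9.36 and 9.49 in osi_DTP and 1.99, 5.54 and 5.17 in combo. All osi_DTP libraries were above all DMSO libraries, and its log2 fold change in osi_DTP was 1.64 (SE 0.59, n = 3 per group, edgeR adjusted p = 0.0826), or 1.49 (SE 0.50, edgeR adjusted p = 0.0235) without both libraries.

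PFKP, the platelet-type phosphofructokinase, had the most regions, and 17 of its 21 log2 fold changes were below 0 in osi_DTP against DMSO. Over the 10 genes 52 of the 96 were below 0, and neighbouring regions of a gene are not independent. In osi_DTP 1 PFKP region was lower and none higher, beside 7.22% and 6.98% of all annotated regions. In combo 5 were lower and 2 higher, beside 11.1% and 10.7% of all annotated regions. The distal intergenic region chr10:2981288-2981789, -84544 bp from the TSS, had 6.47, 9.73 and 7.07 CPM in the DMSO libraries, 0.853, 0.275 and 0.599 in osi_DTP and 0.596, 0.692 and 0.958 in combo. It was lower in all 6 treated libraries than in any DMSO library, and the treated groups held 17 counts each where DMSO held 238. The log2 fold change was -3.68 (SE 0.63, n = 3 per group, edgeR adjusted p = 0.00374) in osi_DTP and -3.38 (SE 0.63, n = 3 per group, edgeR adjusted p = 0.00263) in combo, and both calls held in all 9 fits without 1 library (highest adjusted p = 0.0455, edgeR). The PFKP gene body lies 85759 bp away and that of the predicted gene LOC124902536 84781 bp.

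Within PFKP, regions close to the first promoter and in an inner exon were lower in combo, and a pair of regions further inside was higher. The promoter region chr10:3070128-3070629 had 5.31, 5.63 and 5.57 CPM in the DMSO libraries, 2.84, 0.551 and 2.0 in osi_DTP and 0.993, 1.38 and 1.72 in combo. Its log2 fold change in combo was -2.02 (SE 0.63, n = 3 per group, edgeR adjusted p = 0.0342), and the call was lost in 6 of 9 fits without 1 library (highest adjusted p = 0.124, without combo replicate 1). The region chr10:3071669-3072170, 1424 bp inside the TSS, had 7.01, 9.52 and 6.17 CPM in the DMSO libraries, 3.03, 4.13 and 2.6 in osi_DTP and 1.39, 2.54 and 2.49 in combo. Its log2 fold change in combo was -1.83 (SE 0.55, n = 3 per group, edgeR adjusted p = 0.0296), lost in 6 of 9 fits without 1 library (highest adjusted p = 0.134, without DMSO replicate 2). In both regions all treated libraries were below all DMSO libraries. The exonic region chr10:3098792-3099293 had 10.2, 7.58 and 7.37 CPM in the DMSO libraries, 3.6, 1.65 and 3.1 in osi_DTP and 2.19, 1.73 and 1.15 in combo. Its log2 fold change in combo was -2.28 (SE 0.57, n = 3 per group, edgeR adjusted p = 0.0118), which held in all 9 fits without 1 library. Its intronic neighbour chr10:3099589-3100090 had 6.47, 4.2 and 4.98 CPM in the DMSO libraries, 3.7, 0.964 and 2.3 in osi_DTP and 1.89, 1.04 and 1.53 in combo. Its log2 fold change in combo was -1.80 (SE 0.62, n = 3 per group, edgeR adjusted p = 0.0496), lost in 7 of 9 fits without 1 library (highest adjusted p = 0.15, without DMSO replicate 1). In these 2 regions, too, all treated libraries were below all DMSO libraries. Without both libraries rich in promoter counts chr10:3071669-3072170 and chr10:3098792-3099293 passed also in osi_DTP, at -1.40 (SE 0.47, edgeR adjusted p = 0.0262) and -1.29 (SE 0.45, edgeR adjusted p = 0.0307).

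The 2 PFKP regions that were higher lay 2073 and 2771 bp inside an inner TSS of the gene. The first, chr10:3106952-3107453, had 6.38, 3.07 and 1.99 CPM in the DMSO libraries, 8.91, 12.4 and 4.79 in osi_DTP and 20.3, 16.8 and 17.4 in combo. The second, chr10:3107650-3108151, had 10.7, 4.81 and 3.48 CPM in the DMSO libraries, 13.6, 19 and 7.89 in osi_DTP and 32.7, 29.2 and 23.6 in combo. In both, combo libraries were all above the DMSO libraries and above the osi_DTP libraries. Their log2 fold changes in combo against DMSO were 2.25 (SE 0.60, n = 3 per group, edgeR adjusted p = 0.0159) and 2.17 (SE 0.59, n = 3 per group, edgeR adjusted p = 0.0174). Against osi_DTP they were 1.07 and 1.08 and did not pass. The calls were lost in 2 of 9 fits without 1 library (highest adjusted p = 0.115, without DMSO replicate 3) and in 3 of 9 fits without 1 library (highest adjusted p = 0.122, without DMSO replicate 3). The largest PFKP distal region by mean level, chr10:3096006-3096507 in an intron, had 28.2, 38.6 and 27.4 CPM in the DMSO libraries, 14.8, 27 and 18.4 in osi_DTP and 23.8, 28.7 and 27.4 in combo, with no call, and was -0.90 (SE 0.32, edgeR adjusted p = 0.0344) in osi_DTP without both libraries. In that fit the distal region chr10:3095475-3095976 was higher in combo, at 0.83 (SE 0.33, edgeR adjusted p = 0.0394). The distal regions chr10:3093227-3093728 and chr10:3097049-3097550 were lower in combo, at -2.01 (SE 0.48, edgeR adjusted p = 0.00106) and -1.84 (SE 0.50, edgeR adjusted p = 0.00357). The 14 distal regions together had 186, 252 and 176 CPM in the DMSO libraries, 134, 190.4 and 143 in osi_DTP and 169, 215 and 126 in combo. This sum, which leaves out the 2 regions that were higher because they lie 1 to 3 kb from a TSS, passed in no comparison. The 3 promoter regions together had 36.5, 44 and 40.5 CPM in the DMSO libraries, 18.8, 51.6 and 16.9 in osi_DTP and 16.9, 19.3 and 63.6 in combo. All treated libraries other than those rich in promoter counts were below all DMSO libraries.

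**Figure D3:**
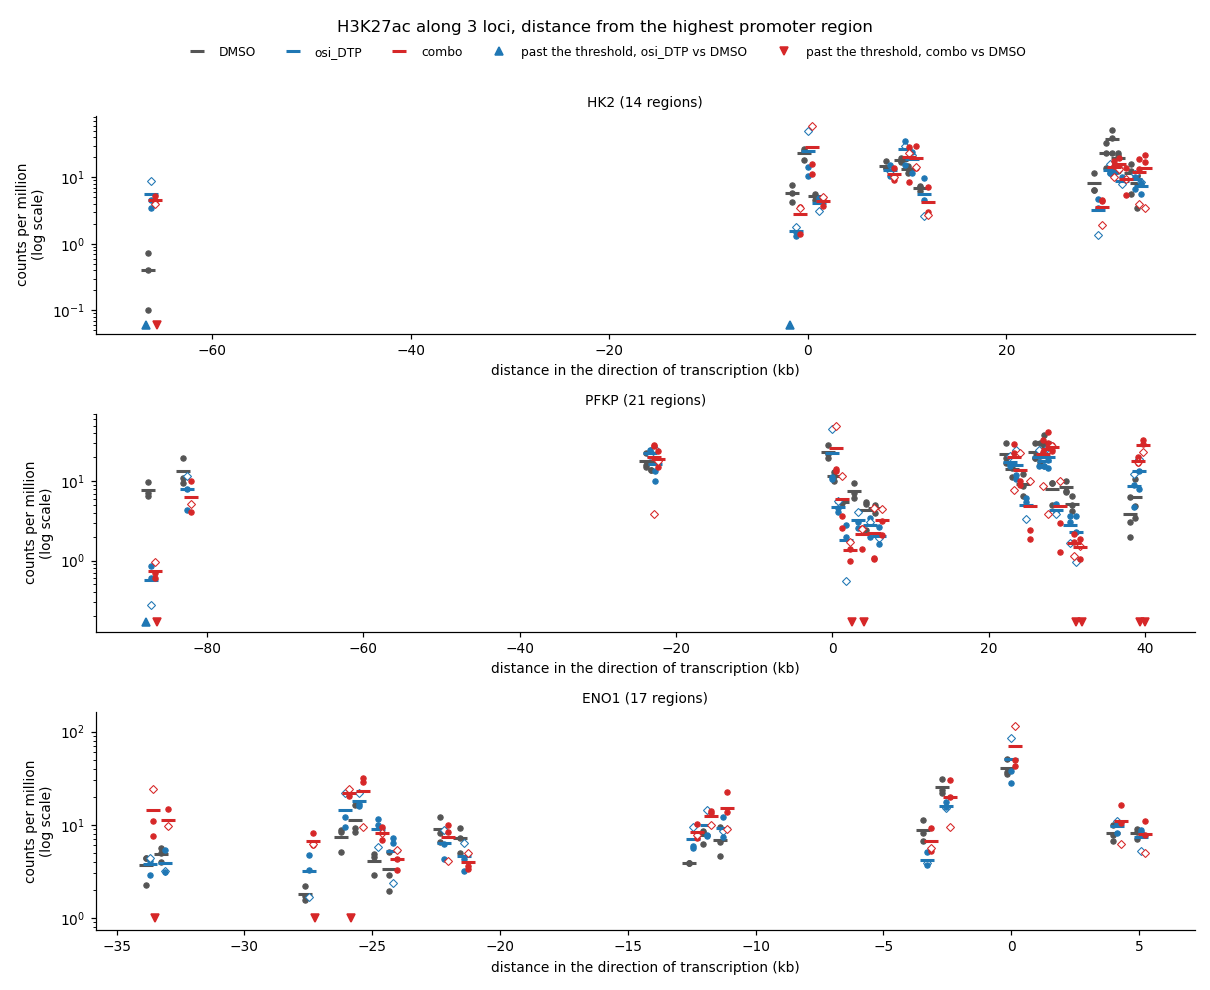
H3K27ac along HK2, PFKP and ENO1, as CPM on a log scale (y axis) against the distance in kb from the highest promoter region, in the direction of transcription (x axis), for each library (points, open diamonds for the libraries rich in promoter counts) and group means (bars). Triangles mark regions past the threshold: the HK2 and PFKP regions far upstream move in opposite directions, and the 3 ENO1 regions are all higher in combo.

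PFKL, the liver-type phosphofructokinase, had the largest log2 fold changes of the 10 genes in combo against DMSO, in 2 regions before its promoter. The region chr21:44297361-44297862, -2189 bp from the TSS, had 0.54, 0.41 and 0.299 CPM in the DMSO libraries, 2.09, 6.33 and 2.6 in osi_DTP and 7.65, 4.04 and 10.3 in combo. All osi_DTP libraries were above all DMSO libraries. The DMSO libraries together held 13 counts. The log2 fold change was 3.08 (SE 0.69, n = 3 per group, edgeR adjusted p = 0.011) in osi_DTP and 4.09 (SE 0.70, n = 3 per group, edgeR adjusted p = 0.00187) in combo. The region chr21:44295964-44296465, -3586 bp from the TSS, had 0.809, 0.102 and 0.398 CPM in the DMSO libraries, 1.71, 2.34 and 1.2 in osi_DTP and 5.17, 2.77 and 22.8 in combo. Here combo replicate 3 was far above the other combo libraries. The log2 fold change in combo was 4.47 (SE 0.87, n = 3 per group, edgeR adjusted p = 0.00334), and without both libraries rich in promoter counts it was 3.19 (edgeR adjusted p = 1.75e-04). In osi_DTP it was 1.94 (SE 0.84, n = 3 per group, edgeR adjusted p = 0.152). The osi_DTP call at -2189 bp was lost in 3 of 9 fits without 1 library (highest adjusted p = 0.0781, without DMSO replicate 3), and the combo calls of both regions were kept in all 9 fits. Both regions overlap the body of AIRE, a regulator of self-antigen expression in the thymus, and the farther one is annotated to exon 11 of 12 of an AIRE transcript. The PFKL promoter regions had 19.3, 20.1 and 15.6 CPM in the DMSO libraries, 19, 86.9 and 17.2 in osi_DTP and 25.6, 28 and 103 in combo. All combo libraries were above all DMSO libraries, with a log2 fold change of 1.51 (SE 0.67, n = 3 per group, edgeR adjusted p = 0.28), and 1.16 (SE 0.66, n = 3 per group, edgeR adjusted p = 0.634) in osi_DTP, where osi_DTP replicate 2 alone stood above DMSO. The highest PFKL promoter region, chr21:44299523-44300024, had 11.6, 12.2 and 8.96 CPM in the DMSO libraries, 12.8, 59.6 and 12.9 in osi_DTP and 21.5, 22.1 and 68.8 in combo. All treated libraries were above all DMSO libraries there. It did not pass with all libraries (edgeR adjusted p = 0.200 in osi_DTP and 0.0744 in combo). Without both libraries rich in promoter counts it was 1.07 (SE 0.34, edgeR adjusted p = 0.0119) in combo.

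PFKFB4 and PFKFB3 make and remove the activator of phosphofructokinase, and each had 1 promoter region past the threshold. PFKFB4 had 5 promoter regions with 86.5, 72.1 and 79.4 CPM in the DMSO libraries, 37.3, 53.4 and 21 in osi_DTP and 25.1, 22.3 and 72.6 in combo in sum. It was the only gene of the 10 whose osi_DTP libraries were all below all DMSO libraries at promoters. The log2 fold change of -1.09 (SE 0.54, n = 3 per group, edgeR adjusted p = 0.511) in osi_DTP and -0.99 (SE 0.54, n = 3 per group, edgeR adjusted p = 0.396) in combo did not pass. Without both libraries rich in promoter counts it was -1.41 (SE 0.27, edgeR adjusted p = 4.39e-06) and -1.67 (SE 0.27, edgeR adjusted p = 2.81e-08). Of its regions, chr3:48560246-48560747 had 17, 13.2 and 16.5 CPM in the DMSO libraries, 8.25, 6.33 and 4.59 in osi_DTP and 4.57, 2.42 and 7.86 in combo. All treated libraries were below all DMSO libraries, and in combo the log2 fold change was -1.67 (SE 0.57, n = 3 per group, edgeR adjusted p = 0.0487). The call was lost in 8 of 9 fits without 1 library (highest adjusted p = 0.174, without combo replicate 2). In osi_DTP the region passed without both libraries, at -1.25 (SE 0.42, edgeR adjusted p = 0.0255). The neighbouring gene body of UCN2 lies 971 bp from this region. The highest PFKFB4 promoter region, chr3:48561183-48561684, had 25.7, 22.5 and 20.6 CPM in the DMSO libraries, 11.5, 20 and 6.09 in osi_DTP and 9.93, 11.1 and 17.2 in combo. It did not pass with all libraries, and without both it was -1.36 (SE 0.37, edgeR adjusted p = 0.00669) in osi_DTP and -1.05 (SE 0.37, edgeR adjusted p = 0.0214) in combo.

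PFKFB3 had 8 promoter regions at 3 groups of start sites, and these did not move together. The region chr10:6201654-6202155, -711 bp from a TSS, had 6.11, 7.78 and 6.27 CPM in the DMSO libraries, 2.28, 1.79 and 0.599 in osi_DTP and 1.89, 1.27 and 2.87 in combo, so all treated libraries were below DMSO. Its log2 fold change was -2.11 (SE 0.61, n = 3 per group, edgeR adjusted p = 0.0347) in osi_DTP and -1.76 (SE 0.61, n = 3 per group, edgeR adjusted p = 0.0514) in combo, and the call in osi_DTP was lost in 6 of 9 fits without 1 library (highest adjusted p = 0.179, without osi_DTP replicate 3). In combo it passed as lower without both libraries rich in promoter counts (edgeR adjusted p = 0.00342). The region chr10:6163249-6163750 at another start site had 3.87, 2.76 and 2.49 CPM in the DMSO libraries, 5.31, 18.7 and 4.39 in osi_DTP and 7.75, 6.0 and 20.5 in combo. It was above DMSO in all treated libraries, with adjusted p = 0.128 and 0.0593 (edgeR), and without both libraries it was 1.24 (SE 0.44, edgeR adjusted p = 0.0223) in combo. The highest region, chr10:6163861-6164362, had 14.5, 12.5 and 9.76 CPM in the DMSO libraries, 14.2, 47.5 and 9.19 in osi_DTP and 16.3, 15.1 and 53.7 in combo and did not pass. In sum, the promoter regions of PFKFB3 had 64.8, 72 and 56.1 CPM in the DMSO libraries, 51.1, 169.9 and 34.7 in osi_DTP and 51.8, 48.4 and 171 in combo. In 6 of the 8 regions the highest library was osi_DTP replicate 2 or combo replicate 3. Its 1 distal region, in the last intron, had 5.93, 6.14 and 2.99 CPM in the DMSO libraries, 5.69, 4.41 and 3.39 in osi_DTP and 7.85, 5.54 and 1.15 in combo and did not pass.

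ALDOA, the aldolase of muscle and most tumours, had no call. Its promoter regions had 58, 67.1 and 55.1 CPM in the DMSO libraries, 57.5, 115 and 46.2 in osi_DTP and 65.5, 64.8 and 149 in combo. The osi_DTP and DMSO libraries overlapped. The highest region, chr16:30064994-30065495, had 51.9, 62.9 and 47.7 CPM in the DMSO libraries, 51.2, 112 and 39.2 in osi_DTP and 61.2, 64 and 139 in combo. Combo replicates 1 and 2 lay within or just above the DMSO range.

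ENO1, the main enolase of proliferating cells, had 1 promoter region, 4 at 1 to 3 kb and 12 distal intergenic regions upstream, between -10122 and -32580 bp from its TSS. The promoter region, chr1:8878055-8878556, had 36.7, 51 and 35.3 CPM in the DMSO libraries, 37.5, 85.9 and 28.2 in osi_DTP and 42.3, 50.2 and 116 in combo and did not pass. The distal regions in sum had 59.9, 81.6 and 71.3 CPM in the DMSO libraries, 92.6, 109 and 83.9 in osi_DTP and 159.7, 129 and 123 in combo. These libraries did not overlap in any pair of groups and stood in the order DMSO, osi_DTP, combo, an order that the group means of 7 of the 12 regions had. The log2 fold change of the sum was 0.95 (SE 0.35, n = 3 per group, edgeR adjusted p = 0.0448) in combo against DMSO, 0.42 (SE 0.34, n = 3 per group, edgeR adjusted p = 0.393) in osi_DTP against DMSO and 0.53 (SE 0.34, n = 3 per group, edgeR adjusted p = 0.969) in combo against osi_DTP, so 1 of the 3 passed. Its adjusted p was 0.0848 without TMM and 0.328 with TMM from promoter regions only. Without both libraries rich in promoter counts it was 1.10 (SE 0.30, edgeR adjusted p = 0.00271) in combo against DMSO. The call was lost in 7 of 9 fits without 1 library (highest adjusted p = 0.176, without combo replicate 1). Of the distal sums of 7 genes, ENO1 and PFKL, whose sum is the region at -3586 bp, were higher in combo than in DMSO, none was lower, and none passed in osi_DTP, where that of PFKL was 1.70 (SE 0.64, edgeR adjusted p = 0.0328) without both libraries. Of all genes with a distal sum, 16.6% were higher and 17% lower in combo against DMSO, 12.6% and 13.4% in osi_DTP against DMSO, and 0% in combo against osi_DTP.

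In 3 of the 12 distal ENO1 regions the difference between combo and DMSO passed. The region chr1:8904132-8904633 had 5.13, 8.7 and 8.26 CPM in the DMSO libraries, 9.38, 21.9 and 12.1 in osi_DTP and 21.9, 20.2 and 24 in combo. The region chr1:8905543-8906044 had 1.71, 1.54 and 2.19 CPM in the DMSO libraries, 3.22, 1.65 and 4.69 in osi_DTP and 8.05, 6.0 and 6.13 in combo. The region chr1:8911770-8912271 had 2.25, 4.4 and 4.38 CPM in the DMSO libraries, 4.08, 4.41 and 2.9 in osi_DTP and 11, 7.5 and 24.3 in combo. All combo libraries were above all DMSO libraries in each of them, and combo replicate 3 was far above the other libraries in the last. The log2 fold changes in combo were 1.58 (SE 0.54, n = 3 per group, edgeR adjusted p = 0.0496), 1.89 (SE 0.57, n = 3 per group, edgeR adjusted p = 0.0289) and 1.95 (SE 0.59, n = 3 per group, edgeR adjusted p = 0.0294). Without both libraries rich in promoter counts the last was 1.41 (edgeR adjusted p = 0.0106). The calls were lost in 7 of 9 fits without 1 library (highest adjusted p = 0.198, without DMSO replicate 1), in 4 of 9 fits without 1 library (highest adjusted p = 0.131, without DMSO replicate 2) and in 4 of 9 fits without 1 library (highest adjusted p = 0.134, without DMSO replicate 1). CA6, the next protein-coding gene, lies 33597 bp from the last region, which is 33084 bp from the ENO1 gene body. The highest distal region by mean, chr1:8903590-8904091, had 8.36, 16.5 and 9.26 CPM in the DMSO libraries, 15.8, 22 and 16.7 in osi_DTP and 31.4, 28.8 and 9.39 in combo, and its combo replicate 3 fell within the DMSO range. Without both libraries it was 1.48 (SE 0.34, edgeR adjusted p = 8.41e-04) in combo.

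PKM codes for pyruvate kinase and LDHA for the lactate dehydrogenase subunit that favours lactate, and neither gene had a region past the threshold. The PKM promoter regions had 86.7, 90.4 and 73.4 CPM in the DMSO libraries, 82.9, 152 and 72.7 in osi_DTP and 66.9, 57.1 and 150.2 in combo. The LDHA promoter regions had 42.4, 44.4 and 35.5 CPM in the DMSO libraries, 37.2, 71.9 and 31.8 in osi_DTP and 36.4, 33.6 and 77 in combo. In both, the treated libraries that were not rich in promoter counts lay within or under the DMSO range. The highest LDHA region, chr11:18394497-18394998, had 37.9, 37.5 and 30.2 CPM in the DMSO libraries, 32, 60.5 and 27.8 in osi_DTP and 30.4, 28.1 and 66.9 in combo. The highest PKM promoter region, chr15:72230705-72231206, had 33.2, 35.3 and 27.3 CPM in the DMSO libraries, 28.2, 69.5 and 21.2 in osi_DTP and 23.9, 19.8 and 77.6 in combo. The 3 distal regions of PKM had 72.7, 98.6 and 68.8 CPM in the DMSO libraries, 50.4, 64.4 and 50 in osi_DTP and 69.1, 73.5 and 25.1 in combo in sum. The osi_DTP libraries were all below the DMSO libraries, with a log2 fold change of -0.54 (SE 0.44, n = 3 per group, edgeR adjusted p = 0.389) in osi_DTP and -0.51 (SE 0.44, n = 3 per group, edgeR adjusted p = 0.39) in combo. The region chr15:72236386-72236887, -4564 bp from the TSS, had 14.9, 15.4 and 15.1 CPM in the DMSO libraries, 8.44, 5.78 and 8.19 in osi_DTP and 8.05, 6.11 and 4.22 in combo. It was below DMSO in all treated libraries and did not pass (edgeR adjusted p = 0.223 and 0.091), while without both libraries it was -1.02 (SE 0.39, edgeR adjusted p = 0.0321) in combo. The highest PKM distal region, chr15:72237112-72237613, had 36.3, 47.6 and 32.9 CPM in the DMSO libraries, 26.6, 34.8 and 22.9 in osi_DTP and 34, 40.3 and 9.77 in combo.

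**Figure D4:**
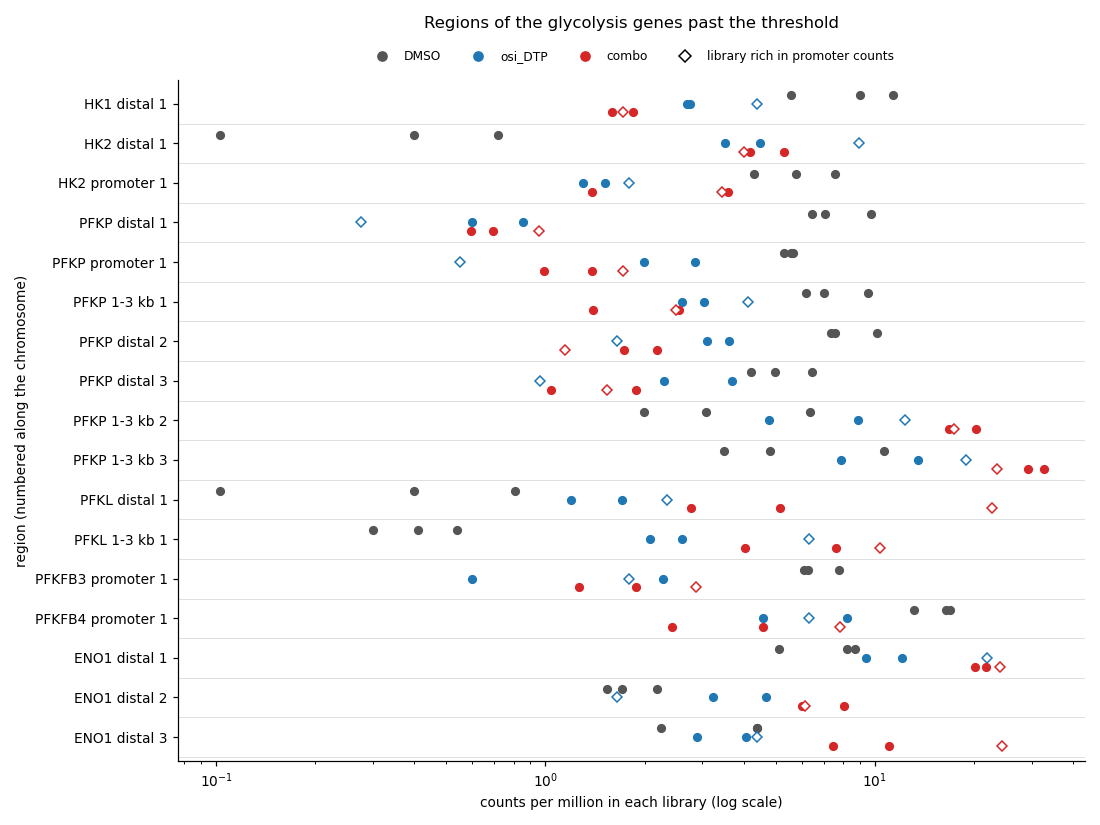
CPM on a log scale (x axis) in each library for the 17 regions of the glycolysis genes that passed in at least 1 comparison (y axis, numbered along the chromosome within a gene and class), with DMSO in grey, osi_DTP in blue and combo in red. The upstream HK2 and PFKL regions lie under 1 CPM in all DMSO libraries, and the PFKP distal region 1 lies under 1 CPM in all treated libraries.

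How many regions passed turned on single libraries. Over the 9 fits without 1 library, between 1 and 22 regions of the 10 genes passed in osi_DTP against DMSO, with none higher and 1 lower without DMSO replicate 2, and 7 higher and 15 lower without combo replicate 3. Of all regions, 0.407% were higher and 0.294% lower in the first of these fits, and 14.2% and 12.7% in the second. In combo against DMSO the number ran from 5 to 31, with 3 higher and 2 lower without DMSO replicate 2, and 11 higher and 20 lower without combo replicate 3, where 2.41% and 2.77%, and 18.4% and 17.3%, of all regions were. The number of calls over all regions thus moved with the same libraries. Without both libraries rich in promoter counts, 4 regions were higher and 17 lower in osi_DTP against DMSO, where 14.9% and 12% of all regions were, and 17 were higher and 25 lower in combo against DMSO, where 22.8% and 19.8% of all regions were. In combo against osi_DTP 1.13% of all regions were then higher and 0.977% lower, and none of the 96. Promoter regions with a call in that fit in both comparisons with DMSO included those of PFKFB4 at chr3:48557184-48557685 and of PFKP at chr10:3069134-3069635. The first had 16.3, 24 and 17.8 CPM in the DMSO libraries, 7.11, 11.4 and 2.7 in osi_DTP and 5.07, 4.61 and 13.8 in combo. The second had 11.6, 9.93 and 12.9 CPM in the DMSO libraries, 4.55, 5.65 and 4.09 in osi_DTP and 2.58, 3.69 and 11.7 in combo. In these 2 regions all osi_DTP libraries were below all DMSO libraries.

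**Figure D5:**
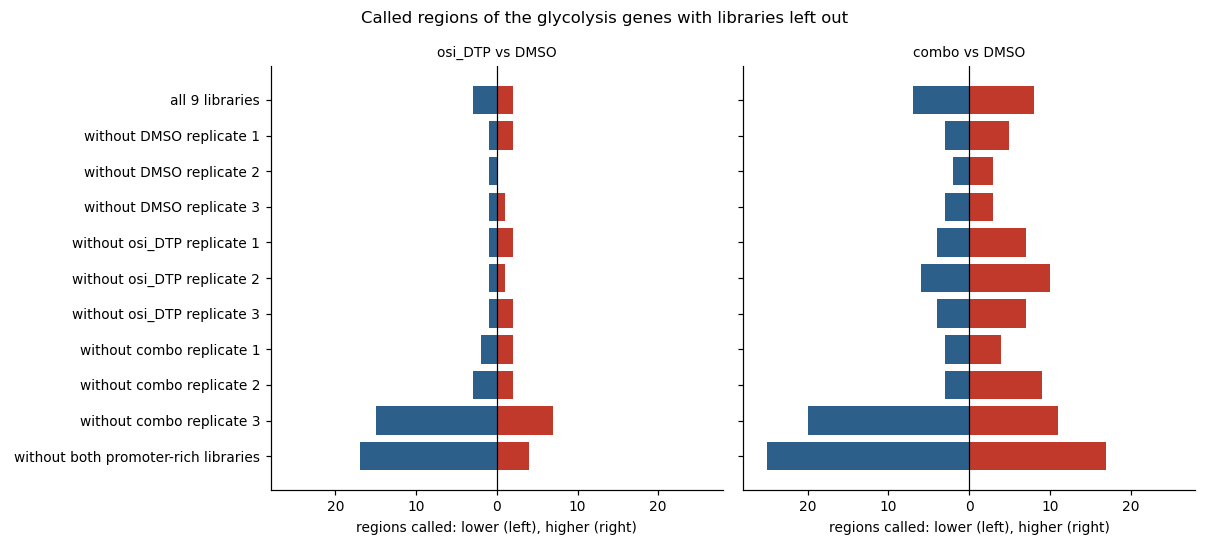
Number of regions of the glycolysis genes called lower (bars to the left) and higher (bars to the right) in osi_DTP against DMSO and in combo against DMSO (x axis), for the fit of all 9 libraries and each fit with libraries left out (y axis). Leaving out combo replicate 3 raises both counts, to 22 and 31 regions, and leaving out DMSO replicate 2 lowers them to 1 and 5.

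Of the 21 other glycolysis enzymes that were looked at, 14 had regions, 56 in all. In osi_DTP against DMSO 3 of these regions were higher and 2 lower, beside 6.98% and 7.22% of all annotated regions. In combo against DMSO 3 were higher and 5 lower, beside 10.7% and 11.1%. These counts are near or under those shares. None of the 13 promoter sums passed in any comparison. Of the 5 distal sums, 1 was higher and none lower in osi_DTP, beside 12.6% and 13.4% of all distal sums. In combo 1 was higher and 1 lower, beside 16.6% and 17%. The distal sum of PFKFB2, a further PFKFB enzyme, was higher in both treated groups. It had 1.35, 1.64 and 1.3 CPM in the DMSO libraries, 5.5, 7.71 and 6.79 in osi_DTP and 20.6, 17.1 and 9.01 in combo. The groups did not overlap, and the log2 fold change was 2.21 (SE 0.53, n = 3 per group, edgeR adjusted p = 0.00723) in osi_DTP and 3.44 (SE 0.55, n = 3 per group, edgeR adjusted p = 5.17e-04) in combo. The distal sum of BPGM, which makes a phosphate that lowers the oxygen affinity of haemoglobin, had 40.8, 80.7 and 53.8 CPM in the DMSO libraries, 24.4, 24.2 and 40.7 in osi_DTP and 19.3, 28.4 and 4.22 in combo. It was lower in combo, at -1.75 (SE 0.58, n = 3 per group, edgeR adjusted p = 0.0308), a call lost in 4 of 9 fits without 1 library (highest adjusted p = 0.138, without DMSO replicate 2).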

How the data were processed

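H3K27ac was measured by chromatin immunoprecipitation and sequencing in 9 H1975 libraries, 3 per group, with 1 pooled input. The deposited tables hold read counts per 502 bp region, for 169637 regions in full and 67387 with a gene annotation, and the values are raw counts. The submitters' processing notes name BWA 0.7.17, MACS2 2.2.6, featureCounts 2.0.0 and ChIPseeker 1.29.1 with hg38. The deposited peak lists, 1 per library, give fold enrichment, a ratio, and −log10 p and q values as the authors' peak caller wrote them. Only the positions and the −log10 q values of peaks were used for calls. Total counts of 6263443 to 10463351 per library set the precision, and the highest count of a glycolysis region was 810. That is 70.3% of the 1152 counts a region can hold at 1 read per position and strand. The highest count of any region was 1148. With counts corrected for this limit, the log2 ratio of the summed promoter level was 0.25 in osi_DTP against DMSO and 0.31 in combo against DMSO, in place of 0.09 and 0.21.

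Counts were tested in 1 fit of all 9 libraries with edgeR 4.0.16 (limma 3.58.1, R 4.3.3), with filterByExpr (minimum count 10), TMM, a robust quasi-likelihood fit and Benjamini-Hochberg adjustment over all regions or genes, at adjusted p under 0.05. Promoter and distal sums add the counts of a gene's regions of that class. Alternatives were DESeq2 1.42.0, other scalings, no filter, a threshold of 0.01, fits of both groups only, a replicate block, counts corrected for duplicate removal and fits without 1 library. The fit without both libraries rich in promoter counts was chosen after seeing the data. The fit was also run on simulated counts with a common dispersion and the same region proportions in every library. These held no library rich in promoter counts, so they cannot show how such libraries move the calls.

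The 10 genes and all lists were chosen with earlier results of these data known. Named regions were, for each gene, the promoter region and the region elsewhere with the highest mean count, and up to 12 called regions per comparison by size of change. Other regions named, including the remaining calls, were chosen after their values were seen. Replicates are biological triplicates per the labels. Same-numbered osi_DTP and DMSO libraries deviated together (correlations of 0.341 to 0.364 across regions), so they may be paired. The main fit had no block, so its SEs and adjusted p values for osi_DTP against DMSO do not use such a pairing. The alternative fit with the replicate number as a block changed no count of calls of the 10 genes there. Over all genes the block took every promoter sum call. Promoter sequences are from RefSeq.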

Additional observations from a re-analysis of the deposited data

How the results depend on the processing

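The number of regions called was 5 in osi_DTP against DMSO and 15 in combo against DMSO. It was 2 and 4 at adjusted p under 0.01, 2 and 7 with TMM from promoter regions only, and 21 and 42 without both libraries rich in promoter counts. In osi_DTP against DMSO it was 21 with only the libraries of both groups. Of all 146480 regions in that fit 19904 were higher and 18752 lower, in place of 8814 and 8102 of 157919. DESeq2 gave 11 in osi_DTP against DMSO and 22 in combo against DMSO, and its share over all regions is not given here. Fits without 1 library gave 1 to 22 and 5 to 31. Without TMM, 5 regions were higher and 8 lower in combo against DMSO, in place of 8 and 7, and over all regions 9578 and 15277 in place of 14294 and 14222. TMM from promoter regions only gave 4 and 3, and 4648 and 8137 over all regions, and the median over all regions went from 0.23 to -0.14 on the log2 scale.

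No promoter sum was called with all libraries. In osi_DTP against DMSO 1 was lower with TMM from promoter regions only, 1 with a loess offset and 4 without both libraries rich in promoter counts, and in combo against DMSO 1, 3 and 3 were. Of all 12295 genes 402 in osi_DTP and 765 in combo were lower with TMM from promoter regions only. With a loess offset 382 and 807 were, in place of 78 and 135. Fits without 1 library gave 0 in osi_DTP and 0 to 1 in combo, and their shares over all genes are not given here. For distal sums, 1 was called in osi_DTP with only the libraries of both groups and 1 without both libraries rich in promoter counts, in place of 0. Of all 8141 distal sums in the first of these fits 2005 were higher and 1925 lower, in place of 1027 and 1092 of 8143. The fits without 1 library gave 0 to 1. For these fits and the fit without both libraries, the shares over all distal sums are not given here. In combo against DMSO 1 in place of 2 was called at adjusted p under 0.01, without TMM, with TMM from promoter regions only and with only the libraries of both groups. Of all distal sums 738, 1034, 524 and 953 were higher in these fits, in this order, in place of 1353. Those lower were 818, 1602, 942 and 857, in place of 1384. Fits without 1 library gave 1 to 2.

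The log2 ratio of the summed promoter level was 0.09 in osi_DTP against DMSO, -0.52 without both libraries rich in promoter counts and -0.49 to 0.46 in fits without 1 library. In combo against DMSO it was 0.21, with -0.48 to 0.44, and in combo against osi_DTP 0.12, with -0.57 to 0.72. That of the distal level in combo against osi_DTP was 0.18, 0.50 without both libraries and 0.02 to 0.32 in fits without 1 library. In osi_DTP against DMSO it was -0.24, with -0.36 to -0.02, and in combo against DMSO -0.05, with -0.21 to 0.11. The sign of the log2 fold change of a gene's sum turned under at least 1 alternative in 22 of 30 promoter results and 8 of 21 distal results. The cause of these changes was not tested.

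With the replicate block the counts were 5, 0 and 15 regions in osi_DTP against DMSO, combo against osi_DTP and combo against DMSO, as without it. The pairing check failed for both comparisons with combo, where not every library correlated best with its own number. In combo against DMSO, combo replicates 2 and 3 did (correlations of 0.549 and 0.343) and combo replicate 1 did not (0.030). In combo against osi_DTP, combo replicate 1 did (0.311) and combo replicates 2 and 3 did not (-0.049 and -0.294). Whether the combo samples are paired with the others is not known. The block took the calls of the BPGM distal sum (adjusted p = 0.0569) and the SLC16A7 promoter sum (0.137) in combo against DMSO. Peaks covered the highest promoter region in all 9 libraries for 10 genes under all 3 rules.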

Other observations

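The genes that bring glucose in, take lactate out or pass pyruvate on were 19 in number, with 110 regions. In osi_DTP against DMSO 4 of these regions were higher and 8 lower, beside 6.98% and 7.22% of all annotated regions. In combo against DMSO 4 were higher and 13 lower, beside 10.7% and 11.1%. Of the distal sums of 12 of these genes, 1 was higher and 2 were lower in each treated group against DMSO. Of all distal sums, 12.6% were higher and 13.4% lower in osi_DTP, and 16.6% and 17% in combo. The distal sum of PDK1, the kinase that shuts off pyruvate dehydrogenase, had 8.54, 14.3 and 9.26 CPM in the DMSO libraries, 0.853, 0.138 and 0.999 in osi_DTP and 1.09, 0.807 and 0.192 in combo, and its log2 fold change was -3.94 (SE 0.68, n = 3 per group, edgeR adjusted p = 0.00158) in osi_DTP and -3.83 (SE 0.69, n = 3 per group, edgeR adjusted p = 9.84e-04) in combo. That of SLC16A1, which codes for the lactate transporter MCT1, had 47, 98.1 and 63.6 CPM in the DMSO libraries, 15.5, 7.44 and 14.9 in osi_DTP and 17.8, 18.6 and 6.71 in combo, at -2.46 (SE 0.53, n = 3 per group, edgeR adjusted p = 0.00397) and -2.27 (SE 0.52, n = 3 per group, edgeR adjusted p = 0.00429). Both genes were lower in all treated libraries than in any DMSO library. SLC16A7, which codes for the related transporter MCT2, was higher. Its distal region had 1.08, 0.512 and 0.0995 CPM in the DMSO libraries, 5.5, 5.23 and 6.29 in osi_DTP and 9.54, 11.8 and 0.767 in combo, at 3.28 (SE 0.86, n = 3 per group, edgeR adjusted p = 0.0121) and 3.67 (SE 0.87, n = 3 per group, edgeR adjusted p = 0.00491), with combo replicate 3 within the DMSO range, and its promoter had 2.52, 1.43 and 0.796 CPM in the DMSO libraries, 10, 20.7 and 3.39 in osi_DTP and 12.1, 6.69 and 20.3 in combo, at 2.82 (SE 0.74, n = 3 per group, edgeR adjusted p = 0.0544) and 3.02 (SE 0.74, n = 3 per group, edgeR adjusted p = 0.0243). The distal call in osi_DTP was lost in 2 of 9 fits without 1 library (highest adjusted p = 0.061, without DMSO replicate 3) and the promoter call in combo in 2 of 9 fits without 1 library (highest adjusted p = 0.183, without DMSO replicate 3).

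Among 12 regulators of glycolysis genes, with 91 regions, 10 regions were higher and 2 lower in osi_DTP against DMSO. This stands beside 6.98% and 7.22% of all annotated regions. In combo against DMSO 15 were higher and 8 lower, beside 10.7% and 11.1%. None of 10 promoter sums passed, where 1.07% and 0.634% of all did in osi_DTP and 2.37% and 1.1% in combo. Of 9 distal sums, 1 was higher and 2 lower in osi_DTP, beside 12.6% and 13.4% of all distal sums. In combo 2 were higher and 2 lower, beside 16.6% and 17%. The distal sum of MLXIP, a glucose-sensing transcription factor, had 96.5, 125 and 92 CPM in the DMSO libraries, 53.9, 40.5 and 48 in osi_DTP and 23.8, 32.3 and 26.6 in combo, and was lower in every treated library than in any DMSO library, at -1.14 (SE 0.38, n = 3 per group, edgeR adjusted p = 0.0376) and -1.92 (SE 0.39, n = 3 per group, edgeR adjusted p = 0.0018). The call in osi_DTP was lost in 7 of 9 fits without 1 library (highest adjusted p = 0.19, without DMSO replicate 2), and that in combo in 0. Its paralogue MLXIPL had 6.74, 14.3 and 13.5 CPM in the DMSO libraries, 1.42, 1.38 and 1.2 in osi_DTP and 0.795, 0.231 and 4.22 in combo at 1 distal region, with -3.10 (SE 0.77, n = 3 per group, edgeR adjusted p = 0.0090) and -2.82 (SE 0.77, n = 3 per group, edgeR adjusted p = 0.0113), calls lost in 2 of 9 fits without 1 library (highest adjusted p = 0.0569, without osi_DTP replicate 2) and in 1 of 9 fits without 1 library (highest adjusted p = 0.0514, without combo replicate 1). The distal sum of MAX, the partner of MYC, was higher, with 6.02, 5.02 and 5.18 CPM in the DMSO libraries, 22.4, 44.3 and 48.1 in osi_DTP and 16.1, 31.5 and 18.6 in combo and 2.82 (SE 0.51, n = 3 per group, edgeR adjusted p = 0.00176) and 2.03 (SE 0.49, n = 3 per group, edgeR adjusted p = 0.00575). HIF1A, the oxygen-regulated factor, had 2.88, 2.05 and 1.39 CPM in the DMSO libraries, 4.46, 3.44 and 3.0 in osi_DTP and 5.76, 5.08 and 5.75 in combo at 1 distal region and was higher in combo, at 1.38 (SE 0.50, n = 3 per group, edgeR adjusted p = 0.0423), a call lost in 7 of 9 fits without 1 library (highest adjusted p = 0.207, without DMSO replicate 3). Gluconeogenesis genes had 28 regions, of which 3 were lower and none higher in each treated group against DMSO. The same shares of all annotated regions hold there. None of the promoter or distal sums of the gluconeogenesis genes passed. No gene of these lists passed in combo against osi_DTP.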
